A study of Mus musculus with 4 samples.

Results

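Expression of 10 genes for the uptake, storage and oxidation of fatty acids was compared between B1a cells of the peritoneal cavity (n = 2) and follicular B2 cells of the spleen (n = 2), both from mice labelled wild-type and C57BL/6. The genes were chosen by name for their place in this pathway, out of 20599 gene symbols listed in the deposited files. They are Cd36, Fabp4 and Fabp5 (uptake and intracellular binding), Acsl1 (activation), Plin2 (storage), Pnpla2 (release from storage), Cpt1a and Cpt2 (entry into mitochondria), and Acadm and Hadha (beta-oxidation). The mice received no treatment. The methods describe the RNA-Seq controls as littermates of Dnmt3a-deficient mice and the controls of the study in general as C57BL/6J mice, so the alleles the mice carried are not settled by the sources used here. B1a cells were sorted from peritoneal washes as CD23- IgM+ CD5+ B cells and follicular B2 cells from spleens as IgD high, IgM low, CD21+ B cells, and the methods describe 2 mice per cell type. The sample labels give an age of 4 weeks for all 4 libraries, whereas the methods give an older age for the mice of the follicular cells. The cell type therefore goes with the tissue and, if the methods hold, with age, and these cannot be told apart. The design asks whether the 2 mature B-cell lineages differ in the expression of these genes.

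Long-chain fatty acids enter a cell with the help of membrane proteins such as CD36, are held in the cytosol by fatty acid-binding proteins, and are joined to coenzyme A by acyl-CoA synthetases. The acyl-CoA is either esterified into triglyceride, which is kept in lipid droplets coated by perilipins and released again by lipases, or is passed to carnitine by CPT1 at the outer mitochondrial membrane, carried inside, returned to coenzyme A by CPT2 and shortened by beta-oxidation. Malonyl-CoA, the first intermediate of fatty acid synthesis, inhibits CPT1, and fatty acid-activated receptors of the PPAR family control many genes of the pathway in liver, muscle and fat.

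None of the 10 genes passed the test between B1a and B2 cells (edgeR's quasi-likelihood test, adjusted p under 0.05), which 5.74% of all 12078 tested genes passed. Of the 10, 8 had enough counts for a test, Fabp4 had 0 counts in every library, and Fabp5 had at most 12. Hadha and Cpt1a were the most expressed in both cell types, with log2 fold changes of 0.08 and -0.29 that did not pass. In a wider list of 106 lipid genes, Lipa, Bscl2 and Acacb were higher in B1a cells, as were 4.24% of all tested genes. Acacb encodes the mitochondrial acetyl-CoA carboxylase, whose product inhibits CPT1.

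The 4 libraries held between 11032732 and 18588623 counts, and each value below is a level in a library or, where stated, a difference between cell types. Levels are given as CPM, counts scaled to the library's size by TMM, within a gene, and as TPM, which is also scaled by transcript length, between genes. The smallest amount told from none was set at 3 counts, between 0.157 and 0.270 CPM, and this limit covers counting error only. At least 1 count was found for 11290 and 12456 gene symbols in the B1a replicates and for 14223 and 12934 in the B2 replicates. Fewer genes were thus found in the B1a libraries, although B2 replicate 1 had the lowest total. The bearing of this on genes at or near 0 counts in B1a libraries was not tested. In the bulk libraries, fewer cells that express a gene and less RNA per cell cannot be told apart. The B1a replicates differed more than the B2 replicates, with a median absolute log2 difference of 0.41 between B1a replicates and 0.17 between B2 replicates over 8900 genes at a mean of at least 10 CPM. Since there are 2 libraries per cell type, p-values rest on the spread between these libraries alone. In edgeR the estimate of this spread for a gene is drawn towards that of the other genes. An exact permutation test could not reach a p under 0.05.

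The sorted cells carried the labelled identities in most markers. Cd79a, which encodes a signaling chain of the B-cell receptor, was found between 1151 and 1755 CPM in the 4 libraries. Of the 6 B-cell markers, 2 were called higher in B1a cells (Cd79a and Ms4a1) and 2 were called higher in B2 cells (Pax5 and Cd22). Of 5 B1a markers, 4 were called higher in B1a cells, and Cd5 was not (edgeR adjusted p = 0.146). Cd5 was found at 15.9 and 22.4 CPM in B1a cells and at 5.46 and 2.25 CPM in B2 cells. Of the follicular markers, Fcer2a and Cr2 were higher in the B2 libraries, whereas Cxcr5 was higher in B1a cells. Markers of other cell types were counted as well. The 12 macrophage markers summed to 245 and 276 CPM in B1a cells and to 73.2 and 77.9 CPM in B2 cells. Lyz2 alone was at 127 and 136 CPM in B1a cells and at 16.8 and 27.2 CPM in B2 cells. Csf1r overlapped, at 16.8 and 21.8 CPM in B1a cells and at 21.1 and 18.3 CPM in B2 cells. Of the 10 tested, Lyz2 passed, the median log2 fold change was 1.71, and 7 had groups that did not overlap, all higher in B1a cells, against 54.3% of all tested genes in either direction. Adgre1 was found at 27.7 and 39.0 CPM in B1a cells and at 8.23 and 11.9 CPM in B2 cells, whereas Timd4 and Gata6, which mark large peritoneal macrophages, had at most 6 counts in any library. The 7 mast cell markers summed to 46.6 and 23.3 CPM in B1a cells and to 2.69 and 1.36 CPM in B2 cells, and Cma1 passed (adjusted p = 0.0499). The 6 erythroid markers summed to 78.7 and 504 CPM in B1a cells and to 36.1 and 80.7 CPM in B2 cells, and Hba-a2 passed (adjusted p = 0.0278). Macrophage, mast cell and erythroid markers were thus higher in sum in the B1a libraries, apart from the erythroid sums of B1a replicate 1 and B2 replicate 2, which were close. Plasma cell markers summed to 437 and 638 CPM in B1a cells and to 343 and 384 CPM in B2 cells. Neutrophil markers were higher in sum in B2 cells, at 3.81 and 12.7 CPM against 0 and 0.988 CPM. T-cell markers summed to 126 and 70.5 CPM in B1a cells and to 85.9 and 83.9 CPM in B2 cells. Dendritic cell markers summed to 20.1 and 34.3 CPM in B1a cells and to 47.1 and 34.6 CPM in B2 cells. The 8 adipocyte markers summed to between 35.1 and 52.1 CPM, nearly all of it Lipe, with Adipoq, Plin1, Cidec and Lep at 0 in every library. The 8 endothelial markers summed to between 256 and 337 CPM, most of it Pecam1, with Emcn, Gpihbp1 and Cldn5 at 0 in every library. Cdh5 had 18 and 23 counts in the B2 libraries and 0 in both B1a libraries, and Vwf had 90 counts in B1a replicate 1 and at most 17 elsewhere. The part of these other cell types in the levels below was not tested.

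CD36 is a scavenger receptor and fatty acid translocase. Cd36, on chromosome 5 of GRCm38 from 17781690 to 17888959, was found at 22.7 and 16.2 CPM in B1a libraries and at 18.3 and 22.8 CPM in the B2 libraries. The groups overlapped, with the highest level in a B2 library and the lowest in a B1a library. The log2 fold change, B1a over B2 here and throughout, was -0.08 (standard error 0.42, 95% interval -1.11 to 0.94, adjusted p = 0.942 by the quasi-likelihood test of edgeR, after Benjamini-Hochberg). Its sign turned without B1a replicate 2 (0.14) and without B2 replicate 2 (0.08). Macrophages also express Cd36, and the summed level of their markers was higher in the B1a libraries, with 1 of the 10 tested past the test. Their part in the level of Cd36 was not tested.

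Fabp4 and Fabp5 encode small cytosolic carriers of fatty acids, known from adipocytes and macrophages and from epidermis, respectively. Fabp4 had 0 counts in every library, which allows a level of up to 0.270 CPM. Fabp5 had 8 and 4 counts in B1a cells and 9 and 12 counts in B2 cells, between 0.359 and 0.780 CPM. Both genes were left out of the test for low counts, so no difference was detectable at this depth. In the same role of the wider list, Got2, a mitochondrial transaminase also described as a membrane fatty acid-binding protein, had the highest mean CPM. Got2 was found at 88.0 and 117 CPM in B1a cells and at 61.6 and 62.7 CPM in B2 cells. Its groups did not overlap, but its difference of 0.72 on the log2 scale did not pass (adjusted p = 0.139). It passed without B1a replicate 1 (adjusted p = 2.97e-05) and without B1a replicate 2 (adjusted p = 0.0351), where 31.0% and 48.9% of all tested genes passed, and not without B2 replicate 1 (0.771) or B2 replicate 2 (0.810).

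Acyl-CoA synthetases trap a fatty acid in the cell by joining it to coenzyme A. Acsl1, on chromosome 8 from 46471037 to 46536051, was found at 45.9 and 31.9 CPM in B1a cells and at 26.3 and 23.8 CPM in B2 cells. Both B1a libraries were above both B2 libraries, and Acsl1 had the largest positive difference of the 8 tested genes. Its difference of 0.63 on the log2 scale did not pass (standard error 0.33, 95% interval -0.18 to 1.45, edgeR adjusted p = 0.358). The sign was positive in each alternative that kept all 4 libraries, with log2 fold changes between 0.35 and 0.64, and the test was passed without B1a replicate 2 (adjusted p = 0.00178) and with no other library left out. In that fit the spread came from the B2 libraries alone.

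Acsl1 was not the main form of its family in these cells. Of the summed TPM of Acsl1, Acsl3, Acsl4, Acsl5 and Acsl6, Acsl1 made up 18.7% and 13.9% in the B1a replicates and 15.2% and 13.6% in the B2 replicates. Acsl5, a form also found on mitochondria, made up 61.1% and 67.9% in B1a cells and 51.5% and 44.1% in B2 cells, and Acsl6 was at 0. These shares are limited by Acsl3, which is summed from 2 entries and whose TPM did not follow its counts. Acsl3 was at 17.0 and 3.32 CPM but 10.1 and 8.78 TPM in the B1a replicates. In the B2 replicates it was at 15.9 and 18.3 CPM but 14.3 and 27.3 TPM. Acsl5 was found at 121 and 125 CPM in B1a cells and at 72.0 and 62.4 CPM in B2 cells. Its groups lay apart, and its log2 fold change of 0.87 came close to the threshold without passing (standard error 0.18, adjusted p = 0.0528). Acsl5 passed in 6 of 12 alternatives, among them DESeq2 (adjusted p = 0.00392), and without either B1a library (adjusted p = 2.45e-05 without replicate 1 and 6.35e-05 without replicate 2). It did not pass without B2 replicate 1 (adjusted p = 0.274) or B2 replicate 2 (adjusted p = 0.621).

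**Figure D1:**
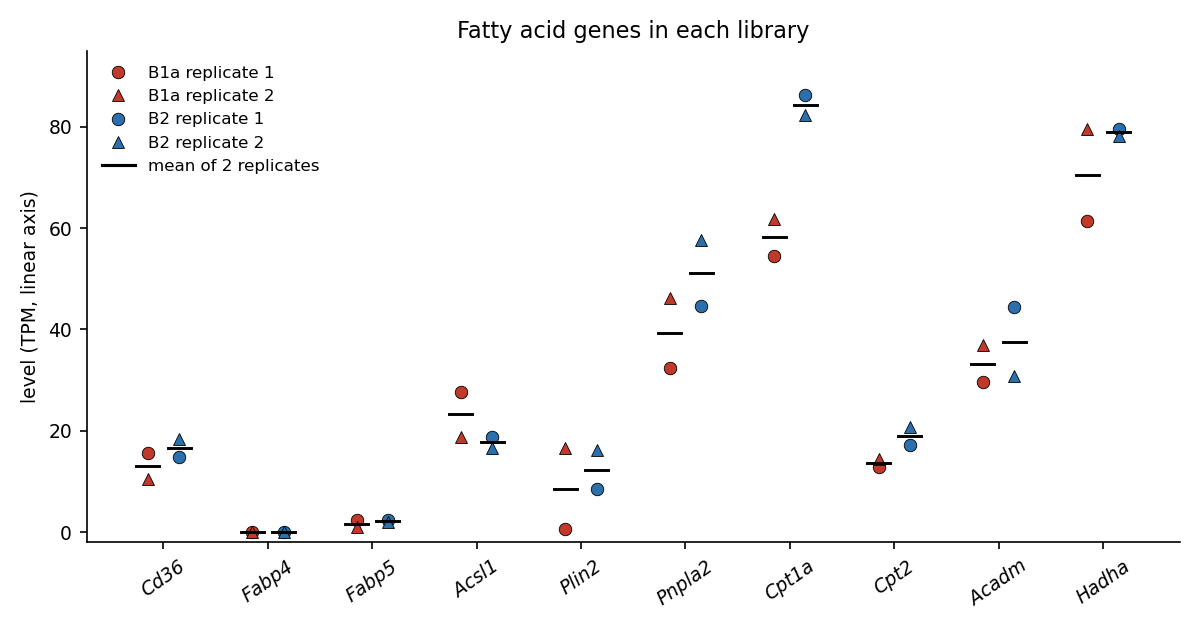
Level in TPM (linear vertical axis) of the 10 fatty acid genes in each of the 4 libraries, with B1a in red, B2 in blue and black lines for the mean of 2 replicates. Hadha and Cpt1a lie highest, Fabp4 lies at 0, and Plin2 is at 0.57 in B1a replicate 1 and at 16.5 in B1a replicate 2.

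Perilipin 2 coats lipid droplets in most cell types, and its mRNA is induced by fatty acids. Plin2, on chromosome 4 from 86626910 to 86670217, had levels of 0.448 and 13.3 CPM in the B1a replicates, from 5 and 148 counts. In the B2 replicates it was found at 5.63 and 10.9 CPM, from 65 and 209 counts. The B1a replicates thus lay on either side of the B2 replicates and were 29.7-fold apart. The log2 fold change was -0.27 (standard error 1.42, 95% interval -3.76 to 3.22, edgeR adjusted p = 0.945), so neither direction nor size was determined. Without B1a replicate 1 it was 0.67, without B2 replicate 2 it was 0.28, and without B1a replicate 2 it was -4.19 with an adjusted p of 1.10e-05.

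Plin2 was not alone in this spread. Of 2436 genes with a mean level within 2-fold of that of Plin2, 197 (8.09%) differed between the B1a replicates by at least as much, and 3 differed by as much between the B2 replicates. Among the perilipins Plin2, Plin3, Plin4 and Plin5, Plin3 held most of the TPM. Plin3, an exchangeable coat protein of small droplets, made up 99.3% and 71.5% in the B1a replicates and 78.3% and 64.4% in the B2 replicates. Plin3 was found at 68.4 and 44.6 CPM in B1a cells and at 30.9 and 23.8 CPM in B2 cells, and these groups did not overlap. Its difference on the log2 scale, 1.05, missed the threshold (adjusted p = 0.149). Plin3 was chosen after its values were seen.

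**Figure D2:**
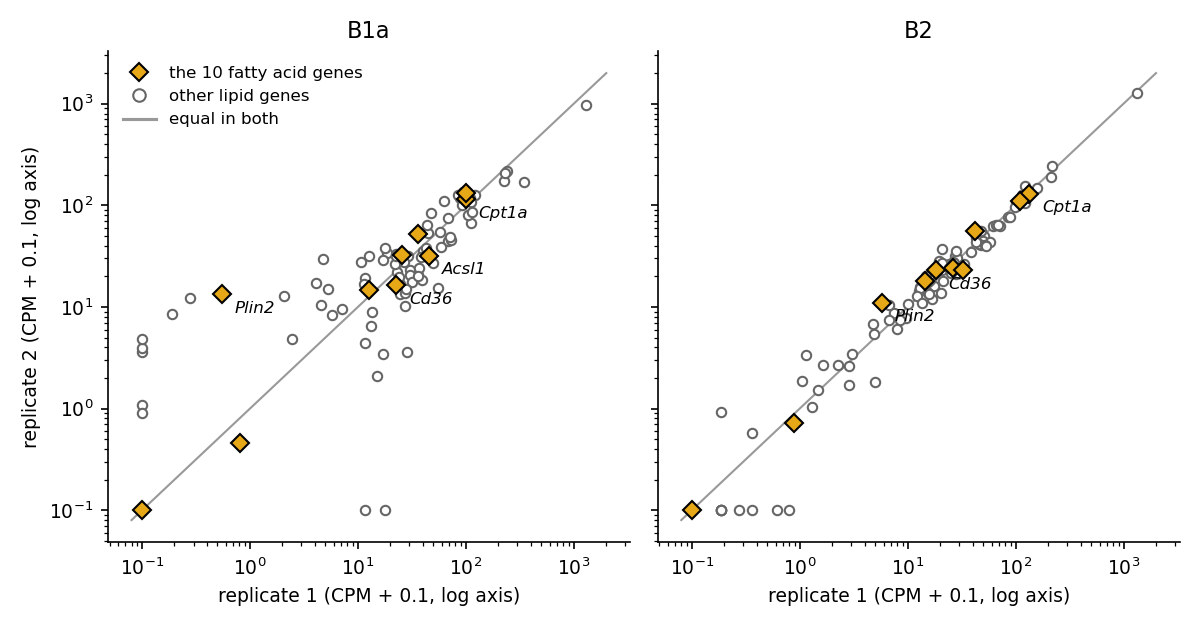
CPM + 0.1 of each of the 106 lipid genes in replicate 1 (horizontal log axis) against replicate 2 (vertical log axis), for B1a cells on the left and B2 cells on the right, with the 10 fatty acid genes as diamonds and a line of equal values. Plin2 lies far above the line in B1a cells, at 0.448 and 13.3 CPM, and the B2 replicates lie closer to the line than the B1a replicates.

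Bscl2 encodes seipin, a protein of the endoplasmic reticulum needed for normal lipid droplets. Bscl2, on chromosome 19 from 8837467 to 8848683, was found at 111 and 67.7 CPM in B1a cells and at 28.8 and 30.0 CPM in B2 cells. Both B1a libraries were above both B2 libraries, with means of 89.1 ± 30.4 and 29.4 ± 0.889 CPM (SD, n = 2 each). Bscl2 was higher in B1a cells by 1.60 on the log2 scale (standard error 0.30, edgeR adjusted p = 0.0397). It passed in 9 of 12 alternatives and not without B2 replicate 1 (adjusted p = 0.0602), nor with any of the 3 TPM fits, where its adjusted p lay between 0.0747 and 0.0922. Its exons share 398 bases with Gng3 on the opposite strand, and whether the counting used strand is not given in the sources used here.

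PNPLA2, or adipose triglyceride lipase, takes the first fatty acid from a stored triglyceride. Pnpla2, on chromosome 7 from 141455188 to 141460743, was found at 35.9 and 52.6 CPM in B1a cells and at 42.1 and 55.3 CPM in B2 cells. The groups overlapped and the replicates within a group were further apart than the group means. The log2 fold change was -0.14 (standard error 0.31, 95% interval -0.89 to 0.61, edgeR adjusted p = 0.866), and its sign turned without B1a replicate 1 (0.10) and without B2 replicate 2 (0.06).

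The partners of PNPLA2 were expressed at lower levels. In TPM, Abhd5 was at most 6.12 and G0s2 at most 11.6 in a library, against at least 32.4 for Pnpla2. Abhd5, its activator, had 1 and 93 counts in the B1a replicates and 18 and 50 counts in the B2 replicates, so its B1a libraries lay on either side of both B2 libraries. G0s2, its inhibitor, had 0 counts in both B1a libraries and 34 and 64 counts in the B2 libraries. Against a limit of 3 counts in each B1a library, G0s2 was at least 11.7-fold lower in B1a cells, but it did not pass (adjusted p = 0.129). Mgll, which cleaves the last fatty acid from the glycerol, had 0 counts in both B1a libraries and 11 and 34 counts in B2 libraries and did not pass either (adjusted p = 0.197). G0s2 passed and was lower in B1a cells in DESeq2 and with limma on log2(TPM + 1) at a mean TPM of at least 1. It passed in no other alternative that kept all 4 libraries. Abhd5, G0s2 and Mgll were chosen after their values were seen.

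Lipa encodes lysosomal acid lipase, which frees fatty acids from cholesteryl esters and triglycerides taken into lysosomes. Lipa, on chromosome 19 from 34492316 to 34527474, was found at 93.8 and 134 CPM in B1a cells and at 26.4 and 27.4 CPM in B2 cells. Its means were 114 ± 28.2 and 26.9 ± 0.661 CPM (SD, n = 2 each), and the lower B1a library was above both B2 libraries. Lipa was higher in B1a cells by 2.08 on the log2 scale (standard error 0.26, 95% interval 1.45 to 2.71, edgeR adjusted p = 0.0100). Lipa passed in 11 of 12 alternatives and with each library left out in turn. The exception was limma on log2(TPM + 1) without a filter (adjusted p = 0.0563). Macrophages also express Lipa, and the macrophage markers summed to 245 and 276 CPM in B1a cells against 73.2 and 77.9 CPM in B2 cells, with a median log2 fold change of 1.71 over the 10 tested markers. The part of macrophage RNA in the difference was not tested.

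Entry of long-chain fatty acids into mitochondria is set by CPT1. Cpt1a, on chromosome 19 from 3322326 to 3385735, was found at 99.8 and 116 CPM in B1a cells and at 134 and 130 CPM in B2 cells. Both B1a libraries were below both B2 libraries, and Cpt1a was 1 of 2 tested genes of the 10, with Acsl1, whose groups did not overlap, against 54.3% of all tested genes. The log2 fold change of -0.29 did not pass (standard error 0.17, 95% interval -0.70 to 0.11, edgeR adjusted p = 0.393). The interval corresponds to a level in B1a cells between 0.615 and 1.08 times that in B2 cells. The sign was negative in each alternative tried, and the test was passed without B1a replicate 2 (log2 fold change -0.41, adjusted p = 0.0451) and with no other library left out.

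CPT1A was the main form of its family. Of the summed TPM of Cpt1a, Cpt1b and Cpt1c, Cpt1a made up 70.2% and 95.7% in the B1a replicates and 90.2% and 91.8% in the B2 replicates. The lower share in B1a replicate 1 came with Cpt1b, the muscle form, at 28.2 CPM in that library against 3.50 CPM in B1a replicate 2, 9.62 CPM in B2 replicate 1 and 7.73 CPM in B2 replicate 2. Cpt1c had at most 1 count. Cpt2, on chromosome 4 from 107903982 to 107923589, was found at 12.6 and 14.6 CPM in B1a cells and at 14.5 and 17.7 CPM in B2 cells. These values overlapped, and the log2 fold change of -0.24 did not pass (standard error 0.48, 95% interval -1.41 to 0.93, adjusted p = 0.847).

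Acacb makes malonyl-CoA at the outer mitochondrial membrane. Acacb, on chromosome 5 from 114146321 to 114250761, had 268 and 218 counts in the B1a libraries and 1 and 16 counts in the B2 libraries. These were 24.0 and 19.6 CPM in B1a cells against 0.0867 and 0.836 CPM in B2 cells, with means of 21.8 ± 3.12 and 0.461 ± 0.530 CPM (SD, n = 2 each). Acacb was higher in B1a cells by 5.46 on the log2 scale (standard error 1.08, 95% interval 2.80 to 8.12, edgeR adjusted p = 0.0456). The call lay close to the threshold, and Acacb passed in 5 of 11 alternatives, with adjusted p-values between 3.16e-07 and 0.151. It passed with each library left out in turn, with log2 fold changes from 4.69 without B2 replicate 1 to 7.80 without B2 replicate 2. The B2 level rests on 1 and 16 counts, the first of them under the limit of 3 counts, so the size of the difference is uncertain.

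The other genes of malonyl-CoA did not pass. Acaca, the cytosolic carboxylase, had a log2 fold change of -0.06 (adjusted p = 0.894). Mlycd, which breaks malonyl-CoA down, was found at 5.19 and 14.8 CPM in B1a cells and at 23.8 and 23.9 CPM in B2 cells. Both of its B1a libraries were lower than its B2 libraries, but the log2 fold change of -1.25 did not pass (standard error 0.61, adjusted p = 0.325). Acaca and Mlycd were chosen after their values were seen.

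**Figure D3:**
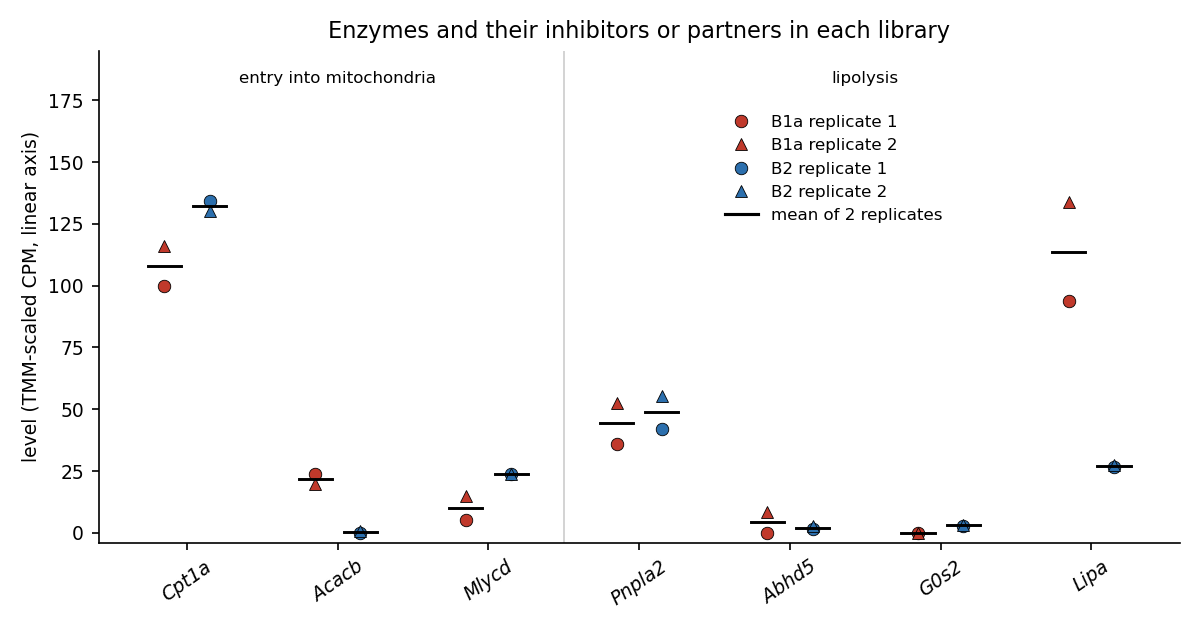
Level in TMM-scaled CPM (linear vertical axis) in each library of genes for entry into mitochondria (Cpt1a, Acacb, Mlycd) and for lipolysis (Pnpla2, Abhd5, G0s2, Lipa), with B1a in red, B2 in blue and black lines for the mean of 2 replicates. Acacb is at 24.0 and 19.6 in B1a cells and under 1 in B2 cells, Lipa is at 93.8 and 134 against 26.4 and 27.4, and the Pnpla2 libraries overlap.

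Beta-oxidation removes acetyl-CoA units in repeated cycles. Acadm, medium-chain acyl-CoA dehydrogenase, catalyzes the first step for chains of medium length. Acadm, on chromosome 3 from 153922353 to 153944643, was found at 25.5 and 32.5 CPM in B1a libraries and at 32.5 and 22.9 CPM in the B2 libraries. The groups overlapped over nearly their whole range. The log2 fold change was 0.07 (standard error 0.36, 95% interval -0.81 to 0.95, edgeR adjusted p = 0.945), and it was -0.16 with limma on log2(TPM + 1), -0.11 without B1a replicate 2 and -0.17 without B2 replicate 2. Of the summed TPM of Acadvl, Acadl, Acadm and Acads, the dehydrogenases for very long to short chains, Acadm made up 20.3% and 20.9% in B1a libraries and at most 25.2% in a B2 library.

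Hadha encodes the alpha subunit of the mitochondrial trifunctional protein, which carries out the later steps for long chains, and Hadhb encodes its beta subunit. Hadha, on chromosome 5 from 30119423 to 30154980, was found at 100 and 133 CPM in B1a cells and at 110 and 110 CPM in B2 cells. The B2 replicates lay between the B1a replicates. The log2 fold change of 0.08 did not pass (standard error 0.20, 95% interval -0.40 to 0.56, edgeR adjusted p = 0.880), and it was -0.17 with limma on log2(TPM + 1) and -0.14 without B1a replicate 2. The interval corresponds to a level in B1a cells between 0.757 and 1.48 times that in B2 cells.

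Hadhb, the gene with the highest mean CPM of its role outside the 10, was found at 72.1 and 45.5 CPM in B1a cells and at 57.6 and 43.4 CPM in B2 cells, with a log2 fold change of 0.22 (adjusted p = 0.779) that turned to -0.03 with limma on log2(TPM + 1) and to -0.15 without B1a replicate 1. It passed without B1a replicate 2 (0.52, adjusted p = 0.0387) and with no other library left out. On the TPM scale the ratio of Hadha to Hadhb was 0.724 and 1.53 in the B1a replicates and 1.00 and 1.35 in the B2 replicates. Replicates of B1a cells thus lay on either side of those of B2 cells in the balance of the 2 subunits.

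Hadha and Hadhb lie head to head, which is why the stretch between them is shown. By RefSeq on GRCm38.p6, Hadha starts at 30154980 on the reverse strand of chromosome 5 and Hadhb starts at 30155253 on the forward strand, 273 bases apart. Of the 250 bases before this start of Hadhb, the longest stretch outside exons annotated by GENCODE is 85 bases long, chr5:30155163-30155247. It is given below on the forward strand, with the 9 CG dinucleotides in capitals.
Hadhb: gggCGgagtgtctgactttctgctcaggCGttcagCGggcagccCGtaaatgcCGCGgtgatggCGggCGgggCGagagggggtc
For Cpt1a and Cd36, the highest in TPM and the lowest in CG content of the members that hold the letters AGGTCA on either strand in the 250 bases before a start, the bases before 1 annotated start are given with these letters, here in reverse as TGACCT, in capitals. AGGTCA is the half-site of PPAR and other nuclear receptors. Bases in annotated exons were left out. The Cpt1a stretch is chr19:3323051-3323284 on the forward strand and the Cd36 stretch is chr5:17835897-17836146 on the reverse strand.
Cpt1a: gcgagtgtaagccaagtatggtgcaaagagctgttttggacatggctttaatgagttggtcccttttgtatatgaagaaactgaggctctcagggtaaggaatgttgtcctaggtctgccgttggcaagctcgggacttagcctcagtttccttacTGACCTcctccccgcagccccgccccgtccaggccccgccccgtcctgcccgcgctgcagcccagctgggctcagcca
Cd36: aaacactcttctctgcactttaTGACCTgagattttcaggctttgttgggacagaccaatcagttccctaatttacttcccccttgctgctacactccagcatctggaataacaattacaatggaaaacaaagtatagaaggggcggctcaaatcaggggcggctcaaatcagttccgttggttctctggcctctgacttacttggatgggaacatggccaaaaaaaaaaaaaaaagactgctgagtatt
Among the 10 genes, 8 have a promoter sequence in the RefSeq table, with 2 starts for Acsl1, and not Fabp4 and Fabp5. Of these 8, Acadm, Plin2, Cd36 and Cpt1a hold the half-site, against 14.0% of all 32851 promoter windows of this length. None holds 2 copies in direct repeat with 1 base between them, AGGTCANAGGTCA, which 0.0335% of windows hold. The Cpt1a window has 14 CG dinucleotides and the Cd36 window has 3, against a median of 6 over all windows. A match of letters is a description and was not tested as a binding site.

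Of the PPAR genes, Ppard alone had more than 6 counts in a library. Ppard was found at 22.5 and 31.8 CPM in B1a cells and at 26.7 and 27.3 CPM in B2 cells, with a log2 fold change of 0.01 (adjusted p = 0.993). Ppara had 6 counts in 1 B2 library and 0 in the others, and Pparg had 1 count in 1 B2 library and 0 in the others. Nr1h3, the oxysterol receptor LXR alpha, had 0 counts in both B1a libraries and 25 and 49 counts in the B2 libraries. Its mean B2 level was 8.78 times the limit of 3 counts in a B1a library, without the spread between libraries, and it did not pass (edgeR adjusted p = 0.149). These receptors were chosen after their values were seen.

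By mean TPM over the 4 libraries, Hadha was at 74.7, Cpt1a at 71.3, Pnpla2 at 45.3, Acadm at 35.4, Acsl1 at 20.5, Cpt2 at 16.3, Cd36 at 14.8, Plin2 at 10.4, Fabp5 at 1.90 and Fabp4 at 0. The order was the same in the means of B1a cells, whereas in B2 cells Cpt1a (84.4) stood above Hadha (78.9) and Cpt2 (19.0) above Acsl1 (17.7). Neighbours in this order overlapped over the 4 libraries from Hadha through Cpt1a and Pnpla2 to Acadm, and from Acsl1 through Cpt2, Cd36 and Plin2 to Fabp5. Acadm and Acsl1 did not overlap, with Acadm at 29.7 TPM or more and Acsl1 at 27.7 TPM or less. Hadha was above between 72.2% and 82.1% of the genes with a TPM above 0 in the same library, and Cd36 was above between 30.4% and 41.8%.

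As a group, the 10 genes showed 0 called genes of 8 tested, against 5.74% of the 12078 tested genes, with 4.24% higher in B1a and 1.50% higher in B2 cells. Of the 8, 0 had an unadjusted p under 0.05, against 20.9% of all tested genes. DESeq2, limma-voom and each of the other alternatives with all 4 libraries also called 0 of them, and without B1a replicate 2 the number was 3, of which Acsl1 was higher and Cpt1a and Plin2 were lower in B1a cells, in a fit that called 48.9% of all tested genes. The median log2 fold change was -0.11, with a range of -0.29 to 0.63, beside a median of -0.03 over all tested genes. Of the 8, 3 were positive and 5 negative, and 2 had groups that did not overlap, against 54.3% of all tested genes.

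**Figure D4:**
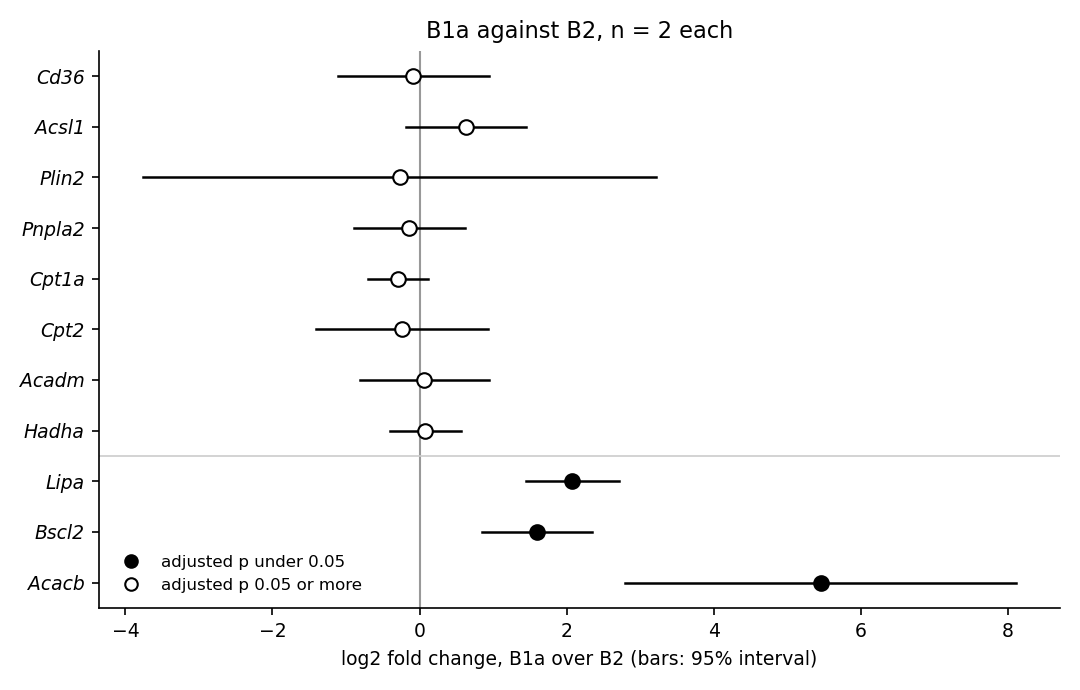
Log2 fold change, B1a over B2 (horizontal axis), with 95% intervals for the 8 tested fatty acid genes and, under the line, for Lipa, Bscl2 and Acacb, with filled points for an adjusted p under 0.05. All 8 intervals cross 0, that of Plin2 running from -3.76 to 3.22, and the intervals of Lipa, Bscl2 and Acacb lie above 0. The points are from edgeR. The log2 fold changes of Acadm and Hadha fell below 0 on the TPM scale, which is not drawn.

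The wider list held 106 genes in 9 roles, these 10 included, of which 90 were tested. Of the 90, 3 were higher in B1a cells (Lipa, Bscl2 and Acacb), 0 in B2 cells, and 16 had an unadjusted p under 0.05, against 4.24%, 1.50% and 20.9% of all tested genes. The groups did not overlap in 41 of the 90, against 54.3% of all tested genes. The median log2 fold change was 0.12. The number called was 6 with DESeq2 (10.8% of all tested genes called), 5 without a filter (7.75%), 1 with limma on log2(TPM + 0.1) (2.98%), 22 without B1a replicate 1 (31.0%) and 47 without B1a replicate 2 (48.9%).

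By role, none of the 7 tested genes of uptake and binding, 5 of activation, 6 of the carnitine shuttle, 18 of mitochondrial beta-oxidation, 10 of peroxisomal oxidation and 11 regulators passed. One role each held Bscl2 (14 tested genes of triglyceride synthesis and droplet coat), Lipa (6 of lipolysis) and Acacb (13 of fatty acid synthesis). Of the 18 genes of mitochondrial beta-oxidation, 14 had a positive and 4 a negative log2 fold change. Their median was 0.21, with a range of -0.78 to 1.30, beside a median of -0.03 over all tested genes. The groups did not overlap in 8 of the 18, against 54.3% of all tested genes. The number of positive signs depends on the scale. With limma on log2(TPM + 1), Acadm, Hadha and Hadhb turned negative, beside a median of -0.30 over all genes. The other genes of this role were not followed on that scale. Among them, Acadl, with a log2 fold change of 0.20 in edgeR, had a mean of 65.1 TPM in B1a cells and 67.25 TPM in B2 cells. The carnitine shuttle had a median of -0.06 and the regulators had a median of -0.31.

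In each role without a called gene, the gene outside the 10 with the highest mean CPM was named, which gave Crat, Acox3 and Stk11 beside Got2, Acsl5 and Hadhb. Crat, carnitine acetyltransferase, was found at 38.4 and 30.7 CPM in B1a cells and at 42.6 and 47.6 CPM in B2 cells, with a log2 fold change of -0.38 (adjusted p = 0.513). Acox3, a peroxisomal oxidase of branched-chain fatty acids, was found at 225 and 173 CPM in B1a cells and at 158 and 150 CPM in B2 cells, with a log2 fold change of 0.37 (adjusted p = 0.311), and passed without B1a replicate 2 (adjusted p = 0.00104) and with no other library left out. Stk11, the kinase upstream of AMPK, was found at 63.2 and 111 CPM in B1a cells and at 123 and 106 CPM in B2 cells, with a log2 fold change of -0.39 (adjusted p = 0.533), and passed without B1a replicate 2 (adjusted p = 7.00e-05) and with no other library left out. The groups of Crat and Acox3 did not overlap, and those of Stk11 did.

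**Figure D5:**
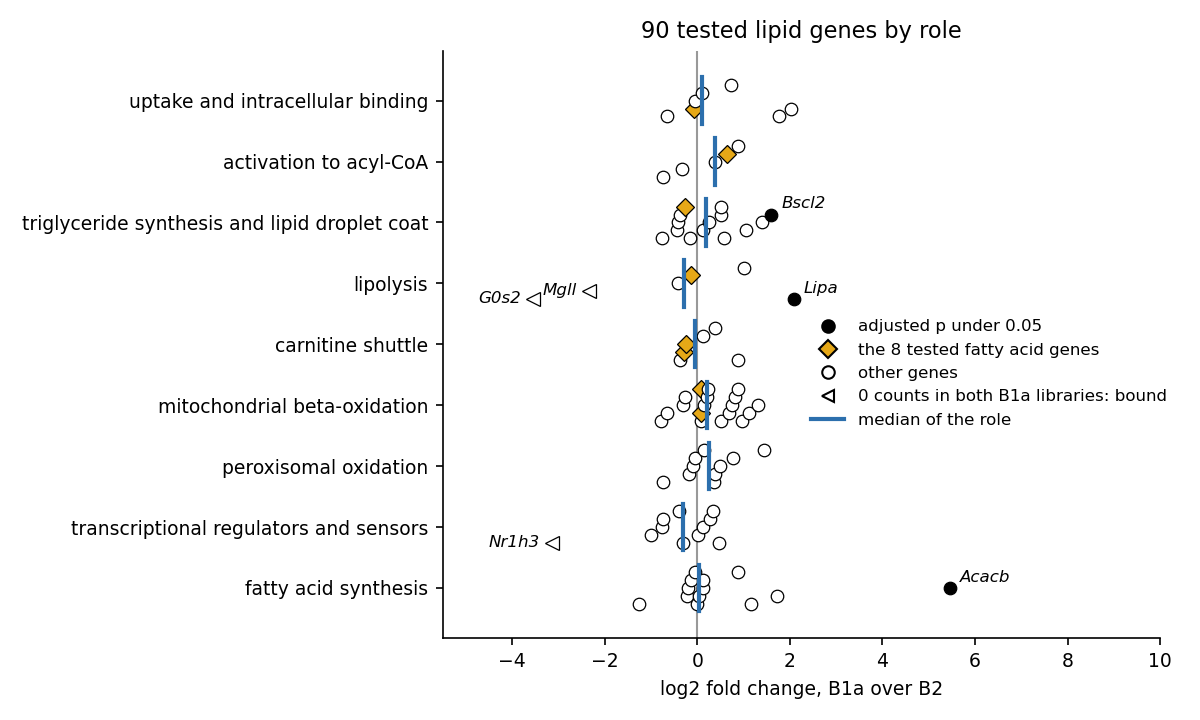
Log2 fold change, B1a over B2 (horizontal axis), of the 90 tested lipid genes in 9 roles, with diamonds for the 8 tested fatty acid genes, filled points for an adjusted p under 0.05, bars for the median of each role and triangles for the limit set by 3 counts in genes with 0 counts in both B1a libraries. The filled points are Bscl2 at 1.60, Lipa at 2.08 and Acacb at 5.46, and the diamonds lie between -0.29 and 0.63.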

How the data were processed

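RNA-Seq libraries of B1a and B2 cells (n = 2 each) were grouped by their sample labels, which name no pairing of replicates. Reads were aligned by the authors to the mm10 build and RefSeq genes were quantified in RSEM (version 1.2.29 in the submitters' processing notes, another version in the methods). The deposited expected counts (21970 entries) are not normalized, and RSEM shares a read among entries where it fits more than 1. The authors also deposited TPM, scaled by transcript length and library, and lengths, and the deposited FPKM was not used. Library totals were 11578785, 11558489, 11032732 and 18588623 counts, and depth limits the precision of low genes.

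Expected counts were summed by symbol and rounded. Low genes were dropped by filterByExpr, libraries were scaled with TMM, and all genes were tested in edgeR 4.0.16 under R 4.3.3 by its quasi-likelihood test. P-values were adjusted by Benjamini-Hochberg, at a threshold of 0.05. Standard errors came from the F statistic. EBSeq, named in the methods, was not run here. The steps were tested on simulated data. The 10 genes, the wider lipid list and the marker lists were chosen with earlier results of these data known. Of the wider list, 2 genes were found under an older symbol. Genes outside the 10 were named where called, or where their mean CPM was the highest, outside the 10, of a role without a call, and others are marked in the text as chosen after their values were seen. Alternatives were upper quartile factors, DESeq2 1.42.0 and its size factors in edgeR, limma-voom (limma 3.58.1), a filter of 10 counts in each library, no filter but 1 count, limma on log2(TPM + 1) and log2(TPM + 0.1) at a mean TPM of at least 1, the former also without that filter, entries not summed, a replicate block and each library left out in turn. Promoters and positions are from RefSeq (GRCm38.p6), and overlaps of exons from GENCODE.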

Additional observations from a re-analysis of the deposited data

How the results depend on the processing

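The 8 tested fatty acid genes had 0 calls in each alternative that kept all 4 libraries, and 0 to 3 calls with 1 library left out. Over all genes, 693 calls became 1595 with DESeq2, 1141 with no filter beyond 1 count, 359 with limma on log2(TPM + 0.1), 202 with limma on log2(TPM + 1) without a filter, 1415 with limma-voom where each cell type had its own weight, an alternative chosen after seeing the data, and 539 to 6143 with 1 library left out. In the wider list, 3 calls became 6, 5, 1, 0 and 7 under the same 5 alternatives, and 2 to 47 with 1 library left out. Leaving out a B1a library leaves the spread to the B2 libraries alone, and the lone B1a sample is assumed to vary like them. The replicate numbers name no pairing in the labels, and differences between replicates 1 and 2 did not go together in B1a and B2 cells (Pearson correlation -0.02 across genes). With a replicate block, calls were 1481 over all genes, 6 in the wider list and 0 among the fatty acid genes.

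Signs were followed for the 10 genes and the genes named by rule only. Of these, Acadm turned negative (-0.0025 with upper quartile factors, and -0.16 with log2(TPM + 1), with or without a filter, and with log2(TPM + 0.1)). Hadha (-0.17) and Hadhb (-0.029) turned negative in the 3 TPM fits. The median over all genes was -0.30 with log2(TPM + 1) against -0.03 in edgeR. With 1 library left out, log2 fold changes ran from -0.35 to 0.14 for Cd36, -4.19 to 0.67 for Plin2, -0.44 to 0.10 for Pnpla2, -0.17 to 0.34 for Acadm, -0.14 to 0.27 for Hadha and -0.15 to 0.52 for Hadhb. Of the calls over all genes, 73.9% were higher in B1a cells in edgeR, 53.3% with log2(TPM + 1), 54.6% with log2(TPM + 0.1), 60% with a replicate block, and 51.9% and 45.4% without B1a replicate 1 or 2. Plin2 and Acacb could not be tested at 10 counts in every library.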
